A study of Mus musculus with 10 samples.

Results

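BL10 and BALB quadriceps muscle was compared by the 5 arrays, of 10 in the series, that lead from one strain to the other. BL10 stands for C57Bl/10ScSnOlaHsd and BALB for BALB/cOlaHsd. The study describes both as wild-type inbred strains and reports no transgene or treatment for them. One array set BL10 animal 1 (Cy5) directly against BALB animal 2 (Cy3). The other 4 arrays form a chain through other animals: BL10 2 against DBA 1, DBA 1 against BL6 1, BL6 1 against DBA 2, and DBA 2 against BALB 1, with the animal named first labelled in Cy5. DBA stands for DBA/2OlaHsd and BL6 for C57Bl/6JOlaHsd. The direct array and the chain hold different BL10 and BALB animals. The arrays were chosen by their labels, not by any measured value.

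The whole study profiled 10 male mice, 2 of each of 5 strains (the remaining one, CBA, is CBA/CaOlaHsd), with each animal on 2 arrays, once in each dye. They were bought at an age of 6 weeks and kept until 8 weeks, and each labelling took 1 μg of RNA. The arrays carried 7776 oligonucleotides of 65 bases in duplicate spots. After 80 features of a control oligonucleotide were joined to 1, 7697 features were tested, of which 6752 had 1 gene symbol.

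Quadriceps is a mixed limb muscle in which fast fibres prevail. Its force comes from the sarcomere, in which thin filaments of actin, with nebulin along them, are anchored at the Z-disc and slide along myosin when calcium is released, and parvalbumin and the calcium pump of fast fibres remove that calcium again. BL10 is the background of the dystrophin-deficient mdx mouse and a close relative of BL6, whereas BALB is an albino strain of separate descent. Whole muscle also holds blood, vessel, nerve, fat and connective tissue. In such tissue, fewer cells of a type and less RNA per cell cannot be told apart.

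The deposited values are log ratios and hold no level of a gene, so whether muscle markers were abundant in each animal, or how bright a spot was, cannot be read from them. All values below are on the log2 scale after each array was centred on its median. Within an array, the correlation of duplicate spots was 0.645 to 0.857. Outside the comparison, the array labelled BL6 2 against CBA 1 holds the same numbers as the one labelled BALB 1 against CBA 2, so both were left out of the model. Each strain has 2 animals, and the number of arrays limits the precision. The p-values rest on a spread fitted over all usable arrays and partly borrowed from other features. They do not measure the spread between the 2 animals of 1 strain for a single gene.

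Every array also carries a gene-wise dye effect, a difference between Cy5 and Cy3 that has nothing to do with strain. It was estimated for each gene as the mean of DBA 1 against BL6 1 and BL6 1 against DBA 2, since BL6 1 was in Cy3 on the first and in Cy5 on the second, and was subtracted once per array. This estimate contains any difference between DBA 1 and DBA 2, which cannot be told apart from dye. The direct and the chain estimates therefore share no BL10 or BALB animal but do share this subtraction. For a test, all 8 usable arrays were fitted in limma with strain and dye terms and the animal as the replicate. The direct array had a weight of 0.68 in the fitted difference and BL10 2 against DBA 1 a weight of 0.32, while DBA 2 against BALB 1 had only −0.02, so that BALB 1 hardly entered the fitted value. BL6 1 against DBA 2 had a weight of −0.49 and BALB 2 against BL6 2 one of −0.34.

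At an FDR of 10%, 4 of 7697 features (0.052%) were higher in BL10 than in BALB and 0 (0%) were lower, by limma with Benjamini-Hochberg adjustment. At an unadjusted p under 0.05, limma gave 187 higher (2.43%) and 296 lower (3.85%). The median size of the fitted difference was 0.17, below the median SE of 0.20. Of the 4 features, 2 have a gene symbol, Rnu5g and Npff.

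The largest fitted difference was that of a small non-coding RNA. The study purified its RNA on RNeasy columns, and how much RNA of this small size they kept was not measured. Whether the oligonucleotides for small RNAs bind other transcripts was not tested either. Rnu5g (GenBank M10336) encodes the small nuclear RNA U5, at the core of the spliceosome, and was higher in BL10 by 2.62 (SE 0.26, adjusted p = 0.0126 from limma), which is 6.17-fold. On the arrays, before any dye was subtracted, its ratio was 2.82 for BL10 1 over BALB 2, 2.21 for BL10 2 over DBA 1, 0.01 for DBA 1 over BL6 1, −0.07 for BL6 1 over DBA 2 and 0.94 for DBA 2 over BALB 1. Both BL10 animals stood well above the animal they were set against, DBA and BL6 animals did not differ from each other by more than 0.07, and BALB 1 stood below DBA 2. The direct estimate was 2.86 and the chain estimate 3.20, and each of the duplicate spots gave at least 2.77 in both.

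Rny3 (U34827), the Y3 RNA that is bound by the Ro autoantigen, had a fitted difference of 2.37 (SE 0.46), close to that of Rnu5g, but did not pass (adjusted p = 0.527 from limma). Its ratios were 1.90 for BL10 1 over BALB 2 and 1.68 for BL10 2 over DBA 1, against −1.20, −0.68 and 0.19 on the remaining 3 arrays of the chain. Both BL10 animals were again the higher partner. Its dye effect of −0.94 raised the direct estimate to 2.84 and the chain estimate to 3.76. Rny1 (U34828), the Y1 RNA, had ratios of 1.64 and 0.996 on the arrays with BL10 and a fitted difference of 0.9997 (SE 0.54, adjusted p = 0.798). Of the 6 small RNA features on the array, 1 passed the threshold and 2 reached an unadjusted p under 0.05, both higher in BL10, beside 0.052% and 2.43% higher over all features. Rnu6, the U6 RNA of the spliceosome, differed by 0.31 (SE 0.18), Snora74a, a nucleolar guide RNA, by −0.34 (SE 0.21) and Rnu3a, the U3 nucleolar RNA, by −0.15 (SE 0.20), none past the threshold.

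**Figure D1:**
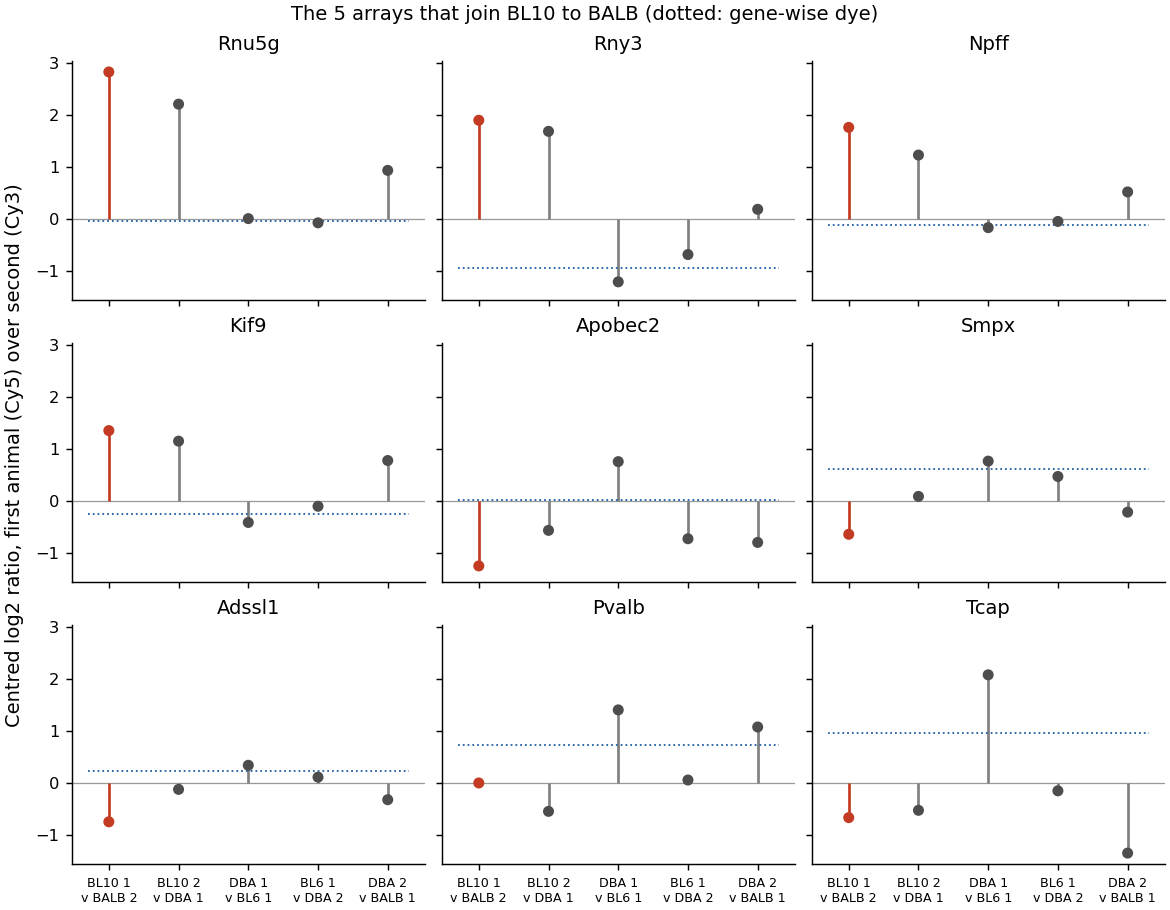
Ratios of 9 genes on the 5 arrays that join BL10 to BALB, as centred log2 of the first animal (Cy5) over the second (Cy3), 1 point per array and no error bar because each array was run once. The direct array is red and the dotted line is the gene-wise dye effect; Rnu5g, Rny3, Npff and Kif9 are above 1 on both arrays that hold a BL10 animal, and the ratio of Pvalb on the direct array is 0.00.

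Npff (NM_018787), the precursor of neuropeptide FF, was higher in BL10 by 1.76 (SE 0.23, adjusted p = 0.0643 from limma), which is 3.38-fold. Its ratio was 1.76 for BL10 1 over BALB 2 and 1.23 for BL10 2 over DBA 1, −0.16 and −0.04 between DBA and BL6 animals, and 0.52 for DBA 2 over BALB 1. As for Rnu5g, both BL10 animals were the higher partner and both BALB animals the lower. The other features past the threshold have neither a symbol nor a GenBank entry in the annotation used, so what they detect is not known. One of them differed by 2.23 (SE 0.20, adjusted p = 0.00948 from limma), with ratios of 2.44 and 2.75 on the arrays with a BL10 animal and at most 0.26 in size on the other 3. The other differed by 2.21 (SE 0.24, adjusted p = 0.0169 from limma), with ratios of 2.07 and 1.90 on the arrays with BL10. Its ratio was 1.04 for DBA 2 over BALB 1, and 0.36 and −0.52 between DBA and BL6.

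A further 6 named features with higher values in BL10 completed the group chosen by size and p, with Rny3 among them, and none passed the threshold. The group, higher and lower, was limited to features with the same sign in the direct and chain estimates, so that shared sign is no result. Kif9 (NM_010628), a kinesin motor of cilia and flagella, had a fitted difference of 1.35 (SE 0.30, adjusted p = 0.77 from limma) and a ratio of 1.35 on the direct array and 1.15 for BL10 2 over DBA 1. Fgfr4 (NM_008011), a fibroblast growth factor receptor of muscle precursors, differed by 0.97 (SE 0.19), and Slc9a4 (AF139195), a sodium-proton exchanger, by 1.11 (SE 0.22). Their ratios on the direct array were only 0.34 and 0.02, and most of either difference was the dye subtracted, −0.74 and −0.98. For Slc9a4 the duplicate spots of the direct estimate were 1.74 and 0.29, and for Homer1, named below, −1.68 and −0.54. Pkmyt1 (AF175892), a kinase that restrains entry into mitosis, differed by 0.80 (SE 0.18) with spots of 0.04 and 1.82, and turned to −0.08 when the values shared by the identical arrays were entered as BL6 2 against CBA 1. Slc7a2, a transporter of cationic amino acids, differed by 0.77 (SE 0.18) on one feature and by 0.23 (SE 0.28) on its other feature.

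No feature passed the threshold as lower in BL10. The lowest fitted value of all, −1.74 (SE 0.62, adjusted p = 0.77 from limma), belonged to a feature without a symbol whose direct estimate was −2.29 and chain estimate 1.06. Apobec2 (NM_009694), a relative of cytidine deaminases found in striated muscle, differed by −1.33 (SE 0.21, adjusted p = 0.199 from limma), 2.51-fold lower in BL10. Its ratios were −1.25 for BL10 1 over BALB 2, −0.56 for BL10 2 over DBA 1, 0.76 for DBA 1 over BL6 1, −0.72 for BL6 1 over DBA 2 and −0.79 for DBA 2 over BALB 1. BL10 was the lower partner on both arrays that hold a BL10 animal and BALB the higher on both that hold a BALB animal, and both DBA animals stood above BL6 1 by about the same amount, so that the dye was only 0.02. The direct estimate was −1.26 and the chain estimate −1.39, and the duplicate spots lay between −1.20 and −1.53.

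Smpx (AJ245772), a small muscle protein of the costamere on the X chromosome, differed by −1.30 (SE 0.23, adjusted p = 0.366), with a direct estimate of −1.26 and a chain estimate of −1.36. Its ratios were −0.64 on the direct array, 0.09 for BL10 2 over DBA 1, 0.77 and 0.47 between DBA and BL6 animals, and −0.21 for DBA 2 over BALB 1. Unlike Apobec2, it owed much of both estimates to a dye of 0.62. When the values of the identical arrays entered under the label BALB 1 against CBA 2, Smpx stood at only −0.28 and Apobec2 at −0.81. Adssl1, the muscle enzyme of the purine nucleotide cycle, differed by −0.91 (SE 0.17, adjusted p = 0.527 from limma). Its ratio on the direct array was −0.74 and its dye 0.23, and its fitted difference was −0.35 with that entry.

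Both leading genes have a promoter window in RefSeq (GRCm38.p6). The windows are printed because these genes had the lowest fitted differences of BL10 minus BALB among the 16 chosen by size and p. Each window runs from 250 bases before to 50 bases after the transcription start and is written 5′ to 3′ on the strand of the gene. Capitals mark matches to the E-box CANNTG, the general site of basic helix-loop-helix factors such as MyoD, to its form CAGCTG, which lies within it, and to the TATA box TATAAA, all searched on both strands. The Apobec2 window (chr17:48432679-48432978, minus strand) held 3 matches to CANNTG, 1 of them CAGCTG, and 1 TATAAA. The Smpx window (chrX:157698723-157699022, plus strand) held 0 of each.
Apobec2: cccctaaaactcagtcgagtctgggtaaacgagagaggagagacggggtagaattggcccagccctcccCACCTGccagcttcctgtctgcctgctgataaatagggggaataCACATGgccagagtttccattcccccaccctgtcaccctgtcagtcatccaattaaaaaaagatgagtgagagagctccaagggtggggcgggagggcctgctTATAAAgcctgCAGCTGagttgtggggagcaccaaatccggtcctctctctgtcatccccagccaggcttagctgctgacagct
Smpx: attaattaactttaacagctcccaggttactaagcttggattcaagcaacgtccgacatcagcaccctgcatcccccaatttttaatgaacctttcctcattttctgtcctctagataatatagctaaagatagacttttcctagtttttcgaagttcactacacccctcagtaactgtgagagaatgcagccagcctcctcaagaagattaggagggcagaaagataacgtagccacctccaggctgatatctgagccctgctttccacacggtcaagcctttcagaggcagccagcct
Of 32851 windows of that length, 72.3% held CANNTG, 16.3% CAGCTG and 13.6% TATAAA. These are matches of letters in the reference genome, the arrays measured nothing at these windows, and the sequence of neither BL10 nor BALB is given. Of the 16 genes chosen by size and p, 10 had a window.

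The remaining 5 of the 8 lower features were Homer1, a scaffold protein of signalling at membranes, at −0.97 (SE 0.20), Pvalb, the parvalbumin of fast fibres, at −0.84 (SE 0.18), Kcnj9, an inward rectifier potassium channel, at −0.76 (SE 0.18), Sypl, a synaptophysin-like membrane protein, at −0.75 (SE 0.18), and Fxr1, an RNA-binding protein of striated muscle, at −0.75 (SE 0.18). None passed (adjusted p of 0.632 for Homer1 and 0.77 for the others from limma). Their ratios on the direct array lay between −0.47 and 0.00, while their dye effects were 0.50 to 0.73. Pvalb shows this most plainly. Its ratio was 0.00 for BL10 1 over BALB 2 and −0.54 for BL10 2 over DBA 1. It was 1.40 for DBA 1 over BL6 1, 0.06 for BL6 1 over DBA 2 and 1.08 for DBA 2 over BALB 1. The fitted difference turned to 0.44 when the values of the identical arrays entered as BALB 1 against CBA 2, to 0.12 as BL6 2 against CBA 1 and to 0.43 with both.

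Across the 7697 features, the direct and chain estimates correlated at r of 0.636 (Spearman 0.609). Features on an array are not independent replicates, and the estimates share the dye subtraction. With no difference between strains at all, the shared arrays alone would give r of 0.402 under the fitted variances, which give every array the same error. The SD between duplicate spots was 0.46 on DBA 1 against BL6 1 and 0.41 on BL6 1 against DBA 2, the shared arrays. It was lower on the direct array (0.29), BL10 2 against DBA 1 (0.27) and DBA 2 against BALB 1 (0.35). The r with no strain difference may therefore be above 0.402. The SD was 0.314 for the direct and 0.673 for the chain estimate, which sums 4 arrays. In size, 40 features were beyond 1 in the direct estimate and 929 in the chain estimate. Both estimates were above 1 for 16 features and below −1 for 15, and 3 features were beyond 1 with opposite signs. The ones above 1 include Rnu5g, Rny3, Rny1, Npff, Kif9, Slc9a4 and Fgfr4, and the ones below −1 include Apobec2, Smpx, Homer1, Tcap and 2 of the 4 features of Neb.

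**Figure D2:**
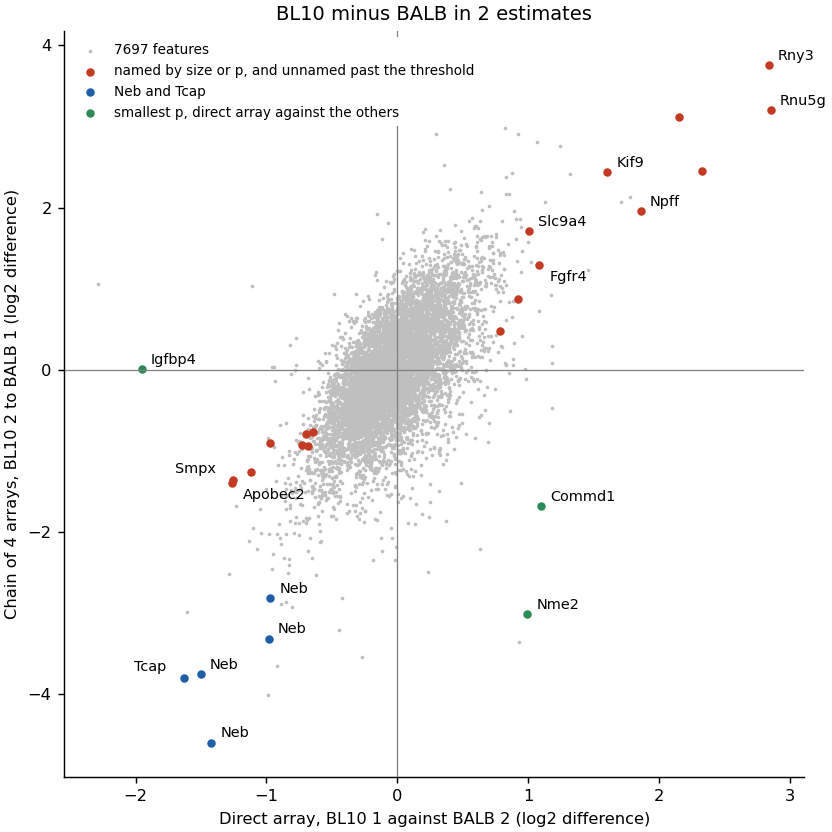
The chain estimate (y axis) against the direct estimate (x axis) of BL10 minus BALB, in log2, 1 point per feature for 7697 features. Rnu5g and Rny3 lie at the upper right, near 2.8 on the direct array, the features of Neb and Tcap lie far lower on the chain than on the direct array, and Igfbp4, Commd1 and Nme2 stand off the main cloud.

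How the dye was taken off changed this comparison more than any other choice. With no dye subtracted r was 0.819, since both estimates then carried the same dye. When the dye was taken from the first spots for the direct array and from the second spots for the chain, r was 0.144. The chain still summed both spots of the dye arrays, so their first spots entered the direct and chain estimates with opposite signs. That alone lowers r, so 0.144 is not the correlation with the shared dye removed. When the dye of the direct array was taken from the smaller loop, r was 0.194. The arrays of that loop share none with the chain but include the values of the identical arrays. With that dye, 8 features were above 1 and 4 below −1 in both estimates, and 5 were beyond 1 with opposite signs. The smaller loop contains the direct array itself, and the genes below were chosen by a fit in which that array weighs most, so their values are given as a description. Under that dye, Rnu5g stood at 2.87, Rny3 at 2.02, Npff at 1.80 and Kif9 at 0.80. Apobec2 stood at −1.22, Smpx at −0.66, Adssl1 at −0.67 and Homer1 at −0.65. Pkmyt1 stood at 0.05 and Pvalb turned to 0.09.

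**Figure D3:**
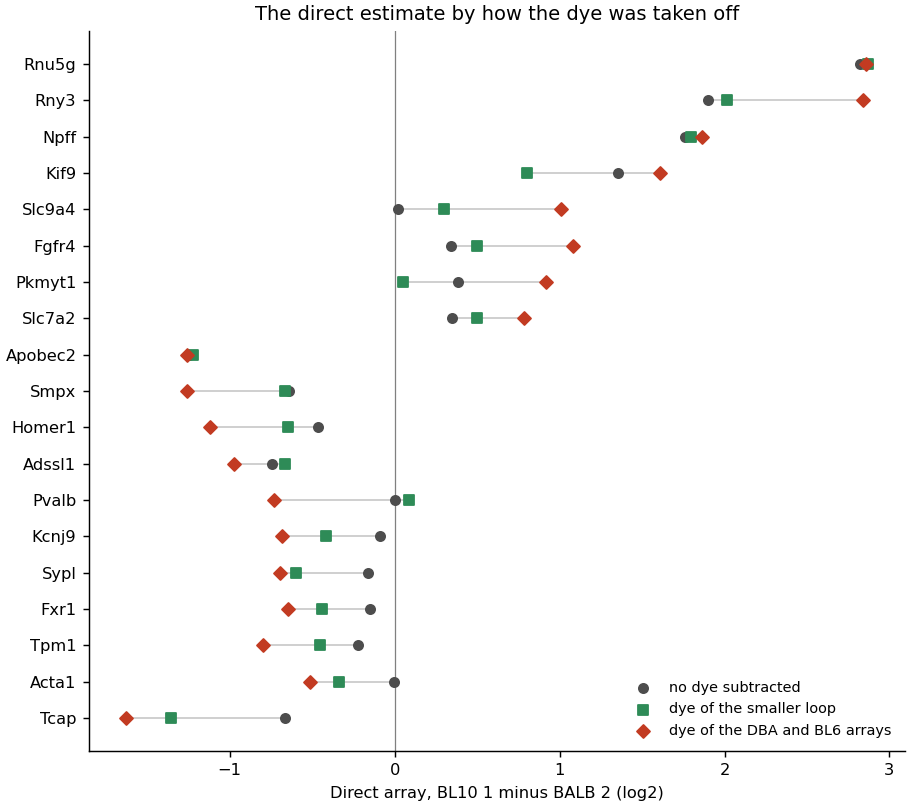
The direct array's log2 difference of BL10 1 minus BALB 2 for 19 genes, with no dye subtracted (circles), with the dye of the smaller loop (squares) and with the mean of the arrays between DBA and BL6 (diamonds). Rnu5g, Npff and Apobec2 hardly move, while Slc9a4, Pvalb and Acta1 are near 0 with no dye subtracted.

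Estimates for sarcomere genes leaned to lower values in BL10, with a median of −0.50 over 26 features of the Z-disc, M-band and thin filament against −0.03 over all features. None of the 26 passed the threshold, while limma gave 0 higher and 7 lower at an unadjusted p under 0.05, beside 3.85% lower over all features. The median was −0.52 on the direct array and −1.14 on the chain, but −0.12 on the direct array with no dye subtracted and −0.27 with the dye of the smaller loop. The median dye of these features was 0.44, against 0.04 over all features. It turned to 0.20, with 8 features higher and 0 lower at an unadjusted p under 0.05, when BL6 1 was left out of the fit.

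The lowest value in this group was that of Tcap, telethonin, which caps titin at the Z-disc, at −1.45 (SE 0.49, adjusted p = 0.77 from limma). Its ratios were −0.66 for BL10 1 over BALB 2 and −0.52 for BL10 2 over DBA 1. They were 2.08 for DBA 1 over BL6 1, −0.15 for BL6 1 over DBA 2 and −1.35 for DBA 2 over BALB 1. Myoz1, a calsarcin of fast fibre Z-discs, differed by −0.86 (SE 0.23) and Acta1, skeletal alpha-actin, by −0.54 (SE 0.17), the latter with a ratio of 0.00 on the direct array. Actn2, the alpha-actinin of the Z-disc, went the other way at 0.56 (SE 0.30), as did Tpm2, a tropomyosin, at 0.55 (SE 0.26). None of these passed.

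The 4 features of Neb, nebulin, differed by −0.94 (SE 0.39, U58108), −0.75 (SE 0.52, X70032), −0.92 (SE 0.64, AF203898) and −0.84 (SE 0.78, AF203899). Their direct ratios were −0.23, −0.20, −0.49 and 0.00 in that order. On DBA 1 against BL6 1 they read 1.67, 2.79, 3.21 and 3.39, on BL6 1 against DBA 2 −0.19, −1.23, −1.19 and −0.55, and on DBA 2 against BALB 1 −1.43, −1.87, −1.65 and −1.61. BL6 1 was thus the lower partner of DBA 1 by far more than of DBA 2, and BALB 1 was higher than DBA 2 on all 4 features. The chain estimates ran from −2.81 to −4.60, and in them a difference between the DBA animals cannot be told apart from dye. Without BL6 1 the fitted differences were 0.74 to 1.75.

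Of the other genes that the study's text discusses, none passed the threshold. Tmod1, which caps the pointed end of thin filaments, differed by −0.50 (SE 0.24), Myom1, myomesin of the M-band, by −0.23 (SE 0.32), Rdx, radixin, by −0.58 (SE 0.42), Dysf, dysferlin of membrane repair, by −0.24 (SE 0.27), Cstb, a cysteine protease inhibitor, by −0.15 (SE 0.26), and Thbs4, a matrix glycoprotein of tendon and muscle, by 0.17 (SE 0.17).

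Fast fibre genes gave a similar picture, with all 8 measured features lower in BL10 by estimate, 2 of them at an unadjusted p under 0.05, and a median of −0.43. Tpm1, a tropomyosin, differed by −0.80 (SE 0.20, adjusted p = 0.77), Atp2a1, the calcium pump of fast fibres, by −0.59 (SE 0.31), and Tnnt3, fast troponin T, by −0.50 (SE 0.27). On the direct array with no dye subtracted the median of the list was −0.01, and it was also −0.01 with the dye of the smaller loop. The fitted median turned to 0.08 when the identical values entered as BALB 1 against CBA 2 and to 0.06 with all 10 arrays. Slow fibre genes had a median of −0.08 over 9 features, with 1 higher at an unadjusted p under 0.05. This was Car3, the carbonic anhydrase of slow fibres and fat cells, at 1.90 (SE 0.55, adjusted p = 0.77), with ratios of 1.73 for BL10 1 over BALB 2, 2.09 for BL10 2 over DBA 1 and 0.78, 0.31 and −0.70 on the others. Both BL10 animals were the higher partner, yet the chain estimate was only 0.30, and without BALB 2 the fitted difference was 0.17. Among genes of excitation-contraction coupling the median was −0.22 over 26 features, but 0.02 on the direct array with no dye subtracted, −0.06 with the dye of the smaller loop and 0.08 in a fit with no dye term. At an unadjusted p under 0.05 there was 1 higher, Chrne, the adult acetylcholine receptor subunit, at 0.53 (SE 0.19), and 1 lower, Jph2, a junctophilin that ties the T-tubule to the calcium store, at −0.78 (SE 0.21).

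The fitted median was 0.05 for 26 features of the respiratory chain and ATP synthase, 0.08 for 33 of mitochondrial carriers, the citric acid cycle and fatty acid oxidation, and −0.03 for 30 of glycolysis and glycogen. These medians had no stable direction, since leaving out BALB 2 gave −0.56, −0.64 and −0.62 and leaving out BL6 1 gave 0.90, 0.56 and 0.28. They were −0.64, −0.67 and −0.61 on the chain and −0.04, 0.05 and −0.11 on the direct array. At an unadjusted p under 0.05, the counts were 0 higher and 0 lower, 2 and 1, and 2 and 1. Vdac3, a channel of the outer mitochondrial membrane, was the 1 lower of the second list at −0.79 (SE 0.20), and Eno3, muscle enolase, the 1 lower of the third at −0.53 (SE 0.22, with −0.55 on its other feature).

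Genes of protein synthesis and turnover held no feature past the threshold. The median was −0.19 over 42 ribosomal protein features (1 higher and 2 lower at an unadjusted p under 0.05), −0.16 over 69 of the proteasome and ubiquitin (0 and 4) and −0.11 over 65 of heat shock and folding (0 and 7), beside 2.43% higher and 3.85% lower over all features. The ribosomal median ran from −0.60 without BALB 2 to 0.19 without BL6 1. Rpl7, a protein of the large ribosomal subunit, differed by −0.73 (SE 0.21). Antioxidant, glutathione and metallothionein genes had a median of −0.03 over 40 features (1 and 5), and immediate early genes one of −0.06 over 26 (0 and 2).

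In the reported fit, lists of markers of other cells in whole muscle had medians between −0.06 and 0.13, beside −0.03 over all features. Their medians were 0.13 for 45 features of extracellular matrix (2 higher and 1 lower at an unadjusted p under 0.05), 0.08 for 28 of histocompatibility and leukocytes (3 and 1), 0.12 for 10 of red blood cells (0 and 0), 0.07 for 14 of endothelium (0 and 0), −0.06 for 13 of Schwann cells and nerve (0 and 0) and −0.01 for 27 of lipid synthesis and fat cells (1 and 0). Under other settings of the fit the medians ran from −0.23 to 0.33 for endothelium, −0.19 to 0.32 for red blood cells and −0.25 to 0.13 for lipid synthesis and fat cells. They ran from −0.23 to 0.16 for Schwann cells and nerve, −0.01 to 0.21 for extracellular matrix and −0.02 to 0.17 for histocompatibility and leukocytes. Summed levels in each strain cannot be given from ratios. For some markers the ratios differed widely between arrays, and whether this came from single animals was not tested. Hba-a1, alpha-globin, had a ratio of 0.32 on the direct array but 2.57 for BL10 2 over DBA 1, and a fitted difference of 1.20 (SE 0.73). Fasn, fatty acid synthase, had ratios of 0.79, 1.90, 0.80, 0.18 and −1.71 along the 5 arrays and a fitted difference of 2.15 (SE 1.44). Its direct estimate was 0.30 and its chain estimate −0.79, so the fitted value lay outside both. Ly6e, an interferon-induced surface protein, differed by 0.80 (SE 0.24), Thy1, a surface protein of T cells, nerve and fibroblasts, by −0.69 (SE 0.24), and Col6a1, a collagen around fibres, by 0.61 (SE 0.20). None of these passed the threshold, and the part that blood or fat had in any other value was not tested.

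**Figure D4:**
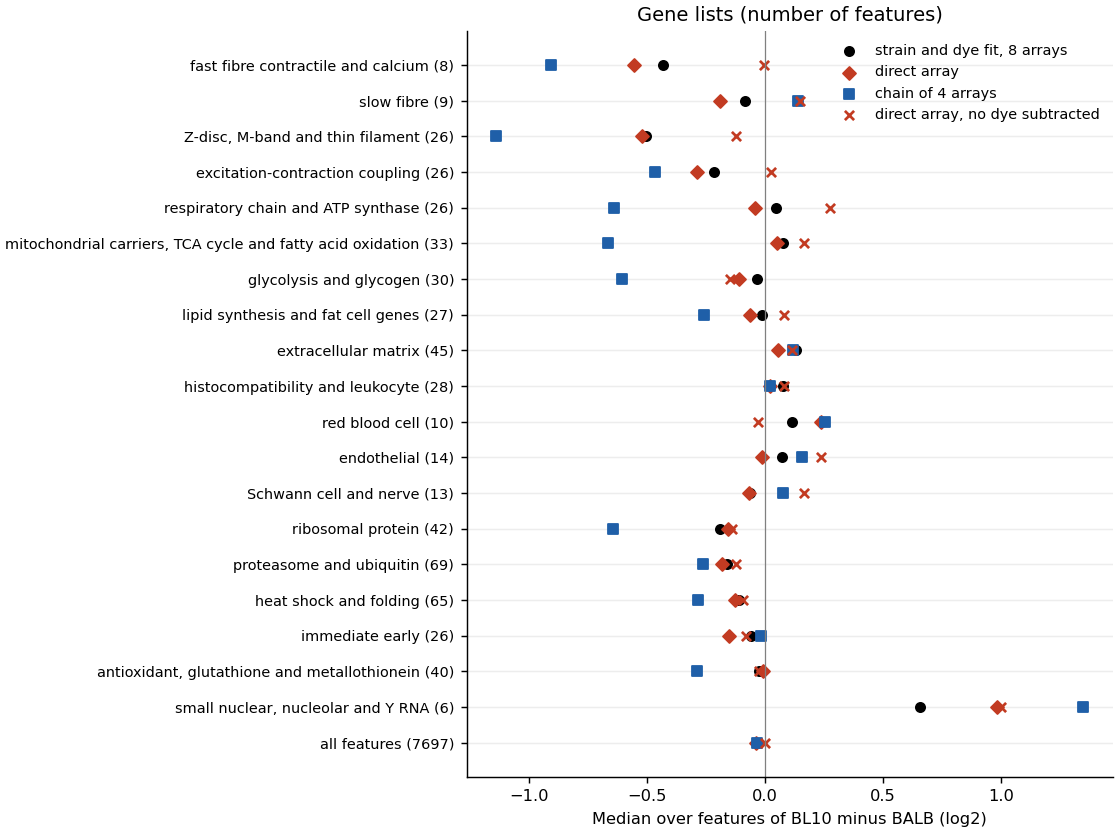
Median log2 difference of BL10 minus BALB over each gene list, with the number of features in brackets, for the fit to 8 arrays, the direct array, the chain, and the direct array with no dye subtracted; the points are medians over features and carry no error bar. Sarcomere lists lie left of 0 in the first 3 and near 0 with no dye subtracted, and the small RNAs lie right of 0 in all 4.

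Whether the direct array differed from what the other 7 arrays predict was asked with an indicator for that array. No feature passed at an FDR of 10%, and limma gave 142 of 7697 (1.84%) at an unadjusted p under 0.05. With 2 residual degrees of freedom, the median SE was 0.32, above the median size of the estimate, 0.21. The lack of calls therefore does not show that the direct array matched the others. The smallest p belonged to Igfbp4, a binding protein of insulin-like growth factors, Commd1, a copper homeostasis protein, and Nme2, a nucleoside diphosphate kinase. Commd1 read 1.79 for BL10 1 over BALB 2 and 1.74 for BL6 1 over DBA 2, but −0.29, −0.36 and −0.01 on the other arrays. Nme2 read 1.17 on the direct array and 1.09 for BL6 1 over DBA 2, against −1.61, −0.73 and −1.04. Igfbp4 had a direct estimate of −1.95 and a chain estimate of 0.01, and its duplicate spots on the direct estimate were −3.76 and −0.13.

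Setting each strain against the mean of BL6 and DBA shows which side of a difference stood apart. BL10 was above that mean for 5 features at an FDR of 10% (0.065%) and below it for 0, by limma. These were Rnu5g at 2.15 (SE 0.24, adjusted p = 0.0312), Pkmyt1 at 1.36 (SE 0.17, adjusted p = 0.0369) and 3 features without a symbol at 2.53, 1.79 and 1.54. Pkmyt1 in BALB was also above that mean, by 0.56 (SE 0.12), and its fitted level relative to the mean of 5 strains was lowest in BL6 at −1.21 and highest in CBA at 1.02, with BL10 at 0.62. BALB was above it for 1 feature (0.013%), Apobec2, at 1.18 (SE 0.13, adjusted p = 0.0732), while Apobec2 in BL10 was at −0.14 (SE 0.19). Rnu5g in BALB was at −0.47 (SE 0.17), and Npff was at 1.28 (SE 0.21, adjusted p = 0.19) in BL10 and −0.48 (SE 0.15) in BALB. For Smpx, BALB stood at 0.90 (SE 0.15) and BL10 at −0.41 (SE 0.21). These contrasts share animals with the comparison of BL10 and BALB and with each other.

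**Figure D5:**
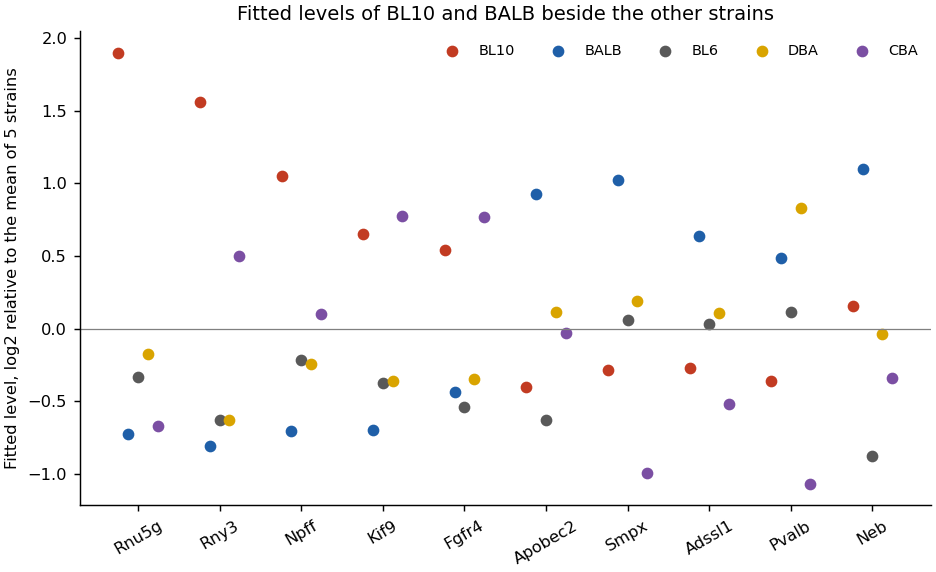
Fitted levels of 10 genes in BL10, BALB, BL6, DBA and CBA, in log2 relative to the mean of 5 strains, 1 point per strain from the fit to 8 arrays and without error bars (Neb is the feature U58108). BL10 is the highest point for Rnu5g, Rny3 and Npff, CBA is above BL10 for Kif9 and Fgfr4, and BALB is the highest for Apobec2, Smpx, Adssl1 and Neb.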

How the data were processed

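Per the labels and the study's methods, quadriceps RNA of each mouse was labelled with Cy5 and Cy3 and hybridised to spotted arrays. The authors extracted spots with GenePix Pro 3.0, subtracted local background and normalized by variance stabilization (VSN). The deposited values are taken as natural log ratios of Cy5 over Cy3. The file states neither scale nor direction, so the first follows from VSN and the second from the dyes in the sample labels. Marked spots are not identified, and signal over background is unknown.

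Duplicate spots were averaged, put on the log2 scale and centred on the median of their array. Array medians before centring were 0.0422 to 0.0735 in the natural log. Of 7776 features, 6831 had 1 symbol, 7 several and 938 none in the platform annotation, and 6806 were found in a GRCm38.p6 gene table.

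limma 3.58.1 in R 4.3.3 fitted strain and dye to 8 arrays, with the animal as the replicate through a variance ratio of animal to array, common to all features, of 0.446 (restricted maximum likelihood). The fit had 3 residual degrees of freedom, and eBayes added 6.13. With the indicator for the direct array that ratio was at its lower bound. P-values were adjusted over 7697 features by the method of Benjamini and Hochberg. Leaving out the 2 identical arrays departs from a design with 10. The steps were tested on simulated data. Plots used matplotlib 3.10.9 (Python 3.11.15).

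Named genes are the features with 1 symbol past an FDR of 10% with 1 sign in both estimates. Each direction was filled to 8 by the smallest p among features with 1 symbol that also had 1 sign in both estimates. Also named are up to 4 members of each gene list by p and the genes discussed in the study's text. The last are 3 features by p for the direct array against the others. The members and lists were chosen with earlier results of these data known.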

Additional observations from a re-analysis of the deposited data

Results flagged for a closer look

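Features whose direct and chain estimates were both beyond 1 in size with opposite signs numbered 3. Commd1 stood at 1.10 on the direct array and −1.68 on the chain, 2.78 apart, and the indicator for the direct array gave an adjusted p of 0.348 from limma. Smn1, whose product assembles small nuclear ribonucleoproteins, stood at −1.11 and 1.03, −2.14 apart (adjusted p = 0.999). A feature without a symbol stood at −2.29 and 1.06, −3.35 apart (adjusted p = 0.999). Groups of 2 animals are too small for a search for single outlying samples.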

How the results depend on the processing

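Of 4 calls between BL10 and BALB, all 4 were called again in 15 of 23 settings. The count was 7 with all 10 arrays as labelled and with equal array spreads, 37 with the 5 arrays of direct and chain alone (1 residual degree of freedom), 1 with either spot alone and 0 without the shared spread, where 502 features had an unadjusted p under 0.05. Npff was lost with no dye term, with the replicate block, and without BL10 1, BL6 1 or BL6 2, and the unnamed feature at 2.21 also without BL6 1. With animal numbers as a replicate block, which only name the animals, the count was 4, with 3 of the first 4 kept. Leaving out 1 animal gave 3 to 1698 calls, the most without BALB 2, with 94 without DBA 1 and 82 without BL6 1; without DBA 2 it could not be fitted. Some of these fits have 1 residual degree of freedom. The features at an unadjusted p under 0.05, 483 in the reported fit, numbered 252 when the shared values were BALB 1 against CBA 2, 1149 with equal spreads, 731 with quantile normalization and 80 to 2390 without 1 animal.

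For BL10 against the mean of BL6 and DBA, 5 calls became 880 at an unadjusted p under 0.05, 83 with 5 arrays, 2 with no dye term or the replicate block, 100 with equal spreads, 12 with quantile normalization, 1 with either spot, 0 without the shared spread and 6 to 2422 without 1 animal. For BALB, 1 call became 1166 at an unadjusted p under 0.05, 291 with 5 arrays, 36 with the replicate block, 5 with the shared values as BL6 2 against CBA 1, and 0 to 3376 without 1 animal. It became 0 at an FDR of 5%, with all 10 arrays, under the label BALB 1 against CBA 2, with no dye term, equal spreads, either spot or no shared spread. The direct array against the others went from 0 calls (142 at an unadjusted p under 0.05, and 175 with the variance ratio of the fit without the indicator, an alternative chosen after seeing the data) to 1 with all 10 arrays or no shared spread, 5 with equal spreads, 1692 with the replicate block and 6 to 1384 without 1 animal. The correlation of direct and chain was 0.819, 0.144 and 0.194 under the other ways to take off dye.

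Of 50 named features, 28 kept their sign in every setting. With all 10 arrays, Pkmyt1 turned to −0.0197, Pvalb to 0.43 and Nme2 to −0.0039. When the shared values were BALB 1 against CBA 2, Pvalb turned to 0.44 and Nme2 to −0.0295, and when they were BL6 2 against CBA 1, Pkmyt1 to −0.0847, Pvalb to 0.12, Actn2 to −0.13 and the second Slc7a2 feature to −0.0543. With no dye term, Acta1 turned to 0.0121, Nme2 to −0.19 and Slc7a2 to −0.0835. Nme2 turned to −0.052 with arrays as independent, −0.27 with quantile normalization and −0.0156 with the second spot, Commd1 to −0.13 with quantile normalization, and Cstb to 0.0441 and Slc7a2 to −0.0631 with the first spot. Leaving out 1 animal gave −1.09 to 0.21 for Eno3, −1.46 to 3.24 for Fasn, −1.41 to 2.42 for Hba-a1, −0.12 to 0.61 for Rnu6, −3.87 to 0.54 for Tcap, −1.04 to 0.0687 for Tmod1, −2.50 to 0.83 for Rdx, −1.32 to 0.66 for Dysf, −1.44 to 0.58 for Myom1, −0.89 to 0.82 for Cstb, −3.92 to 0.0609 for Igfbp4, −1.67 to 3.88 for Commd1, −2.94 to 5.002 for Nme2 and −0.94 to 1.62 for the second Slc7a2 feature. For Neb it gave −2.86 to 0.87, −3.34 to 1.35, −3.77 to 0.74 and −4.63 to 1.75. The cause of these changes was not tested.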
